A study of Mus musculus with 16 samples.

Results

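The genes described are 8 of the 37149 genes tested, chosen by name for their place in cholesterol synthesis and its control: Hmgcs1, Idi1, Fdft1, Sqle, Cyp51, Dhcr7, Srebf2 and Insig1. The first 6 encode enzymes of synthesis and the last 2 encode regulators, and none of the 8 encodes a lipoprotein receptor, so uptake was read from a separate list. The 8 were listed as genes whose promoters pair Sp1 sites with sites for SREBP, the sterol-regulated factor described below. RNA was measured on 16 one-color arrays, 2 for each of 8 groups made of a genotype and a cell population. Sp1+/+ cells were wild type E14 embryonic stem cells and Sp1-/- cells were knock-out cells in which a truncated Sp1 without its DNA-binding domain can be made, and the labels give the strain of both as C57BL/6. All cells came from differentiation of these stem cells in culture. Flk1+ cells, the mesoderm stage, were enriched from embryoid bodies on magnetic beads. Hemogenic endothelium 1 (HE1, KIT+ Tie2+ CD41-), hemogenic endothelium 2 (HE2, KIT+ Tie2+ CD41+) and progenitors (KIT+ Tie2- CD41+) were then sorted by flow cytometry from blast cultures of Flk1+ cells. The labels name no clone and no animals.

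Cholesterol is built from acetyl-CoA through mevalonate, squalene and lanosterol. SREBP2, the product of Srebf2, is held in the endoplasmic reticulum by INSIG proteins when sterol is plentiful and is carried by SCAP to the Golgi, cut and sent to the nucleus when sterol is low. There it binds sterol regulatory elements in the promoters of the synthesis genes, Insig1 and Srebf2 itself, usually beside sites for Sp1 or NF-Y. Growing cells need the pathway for new membrane.

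Promoter sequence was available in the RefSeq table (GRCm38.p6) for 6 of the 8 genes, and the 250 bases before the transcription start are shown for 5 of them because they carry the letters that link these genes to Sp1. Capitals mark matches, on either strand, to GGGCGG (the core of an Sp1 site), CCAAT (the core of an NF-Y site), CACGTG (an E-box) and TCACNCCAC or TCACNCCAT (forms of the sterol regulatory element). No match shown overlaps a match to another motif. The sequences run 5′ to 3′ in the direction of the gene.
Hmgcs1, chr13:119690101-119690350, + strand: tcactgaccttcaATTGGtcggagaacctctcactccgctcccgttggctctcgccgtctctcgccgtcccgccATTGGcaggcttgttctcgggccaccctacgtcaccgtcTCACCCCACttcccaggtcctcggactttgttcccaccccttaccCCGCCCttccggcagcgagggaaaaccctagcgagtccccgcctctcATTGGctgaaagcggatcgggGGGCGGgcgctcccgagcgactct
Insig1, chr5:28071162-28071411, + strand: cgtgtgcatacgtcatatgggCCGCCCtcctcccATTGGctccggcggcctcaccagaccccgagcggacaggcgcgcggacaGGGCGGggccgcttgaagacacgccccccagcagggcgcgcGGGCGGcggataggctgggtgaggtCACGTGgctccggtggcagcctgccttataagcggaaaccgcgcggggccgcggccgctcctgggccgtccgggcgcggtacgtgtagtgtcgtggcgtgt
Srebf2, chr15:82147019-82147268, + strand: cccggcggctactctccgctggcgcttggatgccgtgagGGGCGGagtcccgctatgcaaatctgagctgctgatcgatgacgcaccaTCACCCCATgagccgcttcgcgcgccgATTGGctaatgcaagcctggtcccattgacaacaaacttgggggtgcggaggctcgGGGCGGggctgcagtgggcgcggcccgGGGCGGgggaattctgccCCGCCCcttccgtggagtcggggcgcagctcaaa
Idi1, chr13:8885356-8885605, + strand: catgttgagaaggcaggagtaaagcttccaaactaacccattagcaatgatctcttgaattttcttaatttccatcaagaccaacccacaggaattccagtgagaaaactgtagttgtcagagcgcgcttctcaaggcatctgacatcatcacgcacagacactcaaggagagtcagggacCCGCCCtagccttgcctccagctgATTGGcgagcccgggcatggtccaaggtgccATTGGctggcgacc
Cyp51, chr5:4104698-4104947, - strand: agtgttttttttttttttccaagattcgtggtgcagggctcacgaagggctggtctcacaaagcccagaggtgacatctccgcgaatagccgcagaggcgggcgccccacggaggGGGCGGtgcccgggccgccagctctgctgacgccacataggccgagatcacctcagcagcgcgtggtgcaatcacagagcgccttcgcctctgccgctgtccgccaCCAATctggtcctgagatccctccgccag
GGGCGG was present before a start of all 6 genes and in 32.7% of the 32851 mouse promoter windows of the same length. CCAAT was likewise present in 6 of 6, against 33.8% of windows. Because the genes were listed for promoters that pair SREBP with Sp1 sites, the GGGCGG and sterol element matches describe that choice. They are not a separate finding. A gene counted when any of its start sites matched. Of the 3 start sites of Dhcr7, 1 had CCAAT and 1 lacked GGGCGG. A sterol element of the TCACNCCAC form lay in Hmgcs1, with its first base at position -137 from the start, and is found in 1.05% of windows, and the TCACNCCAT form lay in Srebf2 at position -162 and is found in 0.682% of windows. Insig1 held CACGTG, as did 1 of the 3 start sites listed for Dhcr7, against 6.02% of windows. Cyp51 and Idi1 each held 1 GGGCGG, Hmgcs1 had 2, Insig1 had 3 and Srebf2 had 4. These are matches of letters, not measured binding. The genes not shown lie, in the same build, at chr15:59315092-59331193 (Sqle), chr14:63145150-63181687 (Fdft1) and chr7:143823167-143848410 (Dhcr7).

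The Sp1 probe was lower in every Sp1-/- array. Its deposited log2 intensity was 12.14 to 12.56 on the 8 Sp1+/+ arrays and 9.03 to 10.29 on the 8 Sp1-/- arrays, with log2 fold changes of -2.28, -3.28, -2.56 and -2.90 from Flk1+ cells to progenitors. Where the probe lies relative to the deleted part is not given in the sources used here. Markers followed the sorts in part: Cdh5, an endothelial cadherin, was 14.54 to 15.16 in HE1 and 9.04 to 10.23 in Flk1+ cells, and Itga2b, which encodes CD41, was 11.95 to 12.68 in HE2 and 10.60 to 11.43 in HE1. Kdr, which encodes Flk1, stayed between 13.56 and 14.30 in progenitors. All 8 Sp1+/+ arrays were on 1 slide and all 8 Sp1-/- arrays on the other, so an effect of the slide cannot be told apart from that of the genotype, whereas comparisons between populations of 1 genotype lie within a slide. The sources call the duplicates biological in one place and technical in another. P-values therefore cover the spread between these arrays, which may be technical for some pairs. The Sp1+/+ HE1 pair differed widely in erythroid RNA, at 13.49 and 7.55 for Hba-x, an embryonic globin, and 9.57 and 6.89 for Gata1. In bulk RNA, a change in the mixture of cells and a change in RNA per cell cannot be told apart.

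Values are log2 intensities from the authors' normalized table, and a difference of 1 is 2-fold. Each level is compared only with the same probe on other arrays. A gene was called when limma's moderated test gave an unadjusted p of at most 0.01 and at least a 2-fold change, the thresholds of the study's methods. Since most of these genes changed less than 2-fold, a second reading used a Benjamini-Hochberg adjusted p of at most 0.05 over all 37149 genes with no fold threshold, which was added after seeing the data.

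In Flk1+ cells, no gene of cholesterol synthesis among the 8 differed between the genotypes by the test. None of the 8 was called, against 1.64% of all genes, and none had an adjusted p of 0.05 or less, against 6.98% of all genes (limma, lowest adjusted p 0.353, none at an unadjusted p of 0.05 or less). Log2 fold changes of Sp1-/- over Sp1+/+ ran from -0.44 for Cyp51 to 0.42 for Srebf2, with a median of 0.03 against 0.01 over all genes. The 95% interval of the difference was -0.33 to 0.49 for Hmgcs1, -0.39 to 0.36 for Sqle and -0.14 to 0.50 for Fdft1. The arrays of the 2 genotypes did not overlap for Srebf2, which was higher in Sp1-/- cells, and Cyp51, which was lower, and 51.6% of all genes did not overlap in this comparison.

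In hemogenic endothelium, 4 of the 8 genes in HE1 and 2 in HE2 were higher in Sp1-/- cells by the adjusted p, each by less than 2-fold. In HE1, 7 of the 8 genes had a positive fold change, with a median of 0.58 against 0.01 over all genes. None was called at 2-fold, against 2.09% of all genes, but 4 of 8 had an adjusted p of 0.05 or less and were higher (Hmgcs1, Sqle, Fdft1 and Insig1), against 4.35% of all genes. Both Sp1-/- arrays lay above both Sp1+/+ arrays for 6 of 8 genes, against 22.9% of all genes. In HE2 the median was 0.47 against 0.01, none was called at 2-fold against 1.95% of all genes, 2 of 8 (Hmgcs1 and Fdft1) were higher by the adjusted p against 2.34%, and 7 of 8 did not overlap and were higher against 24.1%. Progenitors had a median of 0.28 against 0.02. There Fdft1 was called, 1 of 8 against 1.51% of all genes called higher, the adjusted p gave the same gene against 6.18%, and 4 of 8 did not overlap and were higher against 34.1%.

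**Figure D1:**
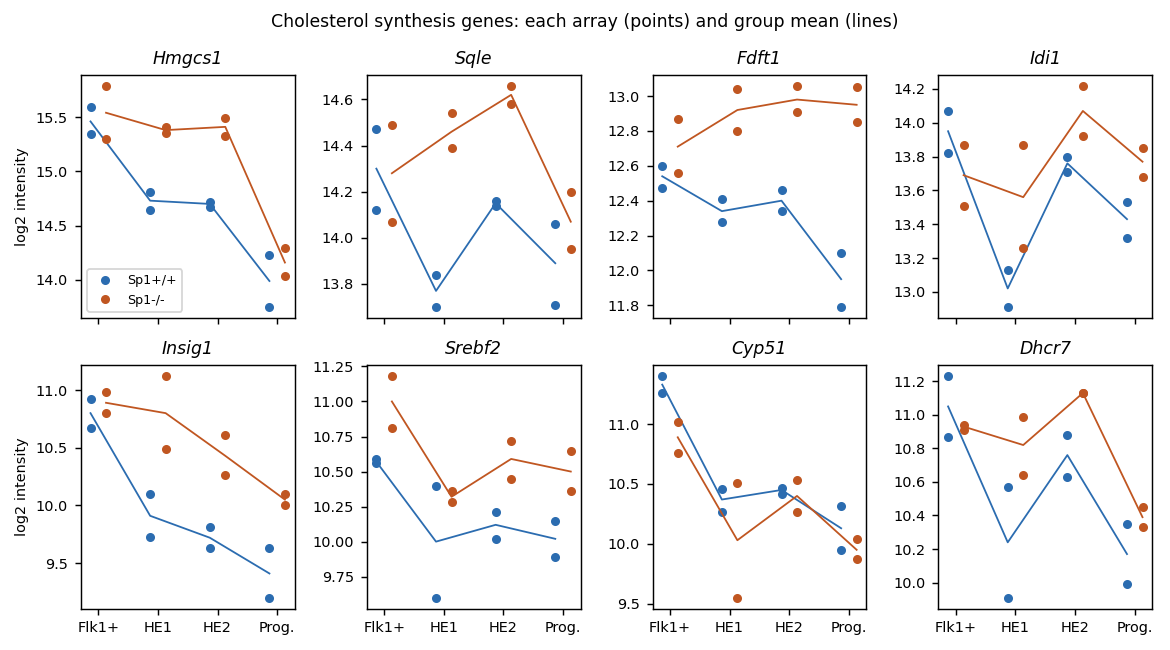
Deposited log2 intensity (vertical axis, a scale of its own in each panel) of the 8 genes in Flk1+ cells, HE1, HE2 and progenitors (Prog.). Points are single arrays, 2 per group, and lines join group means; the Sp1-/- points of Hmgcs1, Sqle, Fdft1 and Insig1 lie above the Sp1+/+ points in HE1 and HE2, while those of Cyp51 do not.

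Hmgcs1, HMG-CoA synthase, makes the precursor of mevalonate. Sp1+/+ arrays gave 15.34 and 15.59 at the Flk1+ stage, 14.81 and 14.64 at HE1, 14.67 and 14.72 at HE2, then 14.23 and 13.75 for progenitors. Sp1-/- arrays gave 15.30 and 15.79, 15.41 and 15.35, 15.33 and 15.49, and 14.04 and 14.29 in the same order. Thus Hmgcs1 was already low in HE1 of Sp1+/+ cells and was still high in HE2 of Sp1-/- cells, with no overlap of the genotypes in either population and overlap in Flk1+ cells and progenitors. The Sp1-/- effect was 0.65 ± 0.19 (SE, n = 2 arrays per group) in HE1 with a limma adjusted p of 0.0488, and 0.71 ± 0.19 in HE2 with a limma adjusted p of 0.0485. Hmgcs1 no longer passed the adjusted p in either population with a normexp offset of 16, with no background correction or with the replicate number as a block. Progenitors showed 0.17 ± 0.19.

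Idi1, isopentenyl diphosphate isomerase, supplies the building units of squalene. Its means in Sp1+/+ cells were 13.95 ± 0.18 (SD, n = 2), 13.02 ± 0.16, 13.76 ± 0.06 and 13.43 ± 0.15 along the same course. Its Sp1-/- means were 13.69 ± 0.25, 13.56 ± 0.43, 14.07 ± 0.21 and 13.77 ± 0.12. HE1 of Sp1+/+ cells was the lowest of the 8 groups and did not overlap the next, progenitors of Sp1+/+ cells. The genotype effect in HE1, 0.54, had a limma adjusted p of 0.12, and those in HE2 and progenitors were 0.31 and 0.34, none past the test.

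Fdft1, squalene synthase, commits the pathway to sterols. Sp1+/+ arrays read 12.47 and 12.60 at the Flk1+ stage, 12.41 and 12.28 at HE1, 12.46 and 12.34 at HE2, then 12.10 and 11.79 for progenitors. Sp1-/- arrays read 12.56 and 12.87, 13.04 and 12.80, 12.91 and 13.06, and 12.85 and 13.05. Every Sp1-/- array of HE1, HE2 and progenitors lay above every Sp1+/+ array of any population. The effect, with an SE of 0.14, was 0.18 at the Flk1+ stage, 0.57 at HE1 (limma adjusted p = 0.0308) and 0.59 at HE2 (limma adjusted p = 0.0387). Progenitors showed 1.01 (limma adjusted p = 0.000947), a level 2.01-fold higher. This 2-fold call was at its threshold: without Sp1+/+ progenitor replicate 2 the difference was 0.85 and without Sp1-/- progenitor replicate 2 it was 0.91, with limma adjusted p of 0.0101 and 0.013. A second, dim Fdft1 probe with a mean of 6.52 differed by 0.13 in progenitors, and the mean of both probes differed by 0.57.

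Sqle, squalene epoxidase, performs the first oxygen-dependent step. In Sp1+/+ cells the arrays read 14.12 and 14.47 at the Flk1+ stage, 13.84 and 13.70 at HE1, 14.14 and 14.16 at HE2, then 14.06 and 13.71 for progenitors. The Sp1-/- arrays read 14.07 and 14.49, 14.54 and 14.39, 14.58 and 14.66, and 13.95 and 14.20. The genotypes separated in HE1 and HE2 and overlapped at both ends of the course. The effect was 0.70 ± 0.17 in HE1 (limma adjusted p = 0.0275) and 0.47 ± 0.17 in HE2 (limma adjusted p = 0.159).

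Cyp51, the lanosterol demethylase, was the exception. Sp1+/+ arrays gave 11.26 and 11.40 at the Flk1+ stage, 10.46 and 10.27 at HE1, 10.47 and 10.42 at HE2, then 10.32 and 9.95 for progenitors, and Sp1-/- arrays gave 10.76 and 11.02, 10.51 and 9.55, 10.53 and 10.27, and 9.87 and 10.04. Its fold change was negative in all 4 populations, at -0.44, -0.33, -0.05 and -0.18, none past the test. In HE1 the value rested on 1 array: it was 0.15 without Sp1-/- HE1 replicate 2 and -0.81 without replicate 1.

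Dhcr7, the reductase of the last step to cholesterol, had Sp1+/+ means of 11.05 ± 0.25 (SD, n = 2), 10.24 ± 0.47, 10.76 ± 0.18 and 10.17 ± 0.25 from Flk1+ cells to progenitors. Its Sp1-/- means were 10.93 ± 0.02, 10.82 ± 0.25, 11.13 ± 0.00 and 10.39 ± 0.08. The genotypes did not overlap in HE1 and HE2, where the effects were 0.58 and 0.37 with limma adjusted p of 0.122 and 0.41.

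Of the regulators, Insig1, which retains SREBP in the endoplasmic reticulum, showed the largest effect of the 8 in HE1. Sp1+/+ arrays read 10.67 and 10.92 at the Flk1+ stage, 10.10 and 9.73 at HE1, 9.81 and 9.63 at HE2, then 9.63 and 9.20 for progenitors. Sp1-/- arrays read 10.80 and 10.98, 10.49 and 11.12, 10.26 and 10.61, and 10.00 and 10.10. Separation was complete in HE1, HE2 and progenitors, and the Sp1-/- HE1 pair had an SD of 0.45. The effects were 0.89 ± 0.22 (limma adjusted p = 0.0297), 0.71 ± 0.22 (limma adjusted p = 0.0976) and 0.63 ± 0.22 (limma adjusted p = 0.0908). Srebf2, the transcription factor gene itself, gave 10.59 and 10.56, 10.40 and 9.60, 10.21 and 10.02, and 10.15 and 9.89 on the Sp1+/+ arrays from Flk1+ cells to progenitors, against 10.81 and 11.18, 10.28 and 10.36, 10.45 and 10.72, and 10.36 and 10.65 on the Sp1-/- arrays. The genotypes overlapped in HE1 alone. Its effects were 0.42, 0.32, 0.47 and 0.48, each with an SE of 0.23, and none passed the test.

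**Figure D2:**
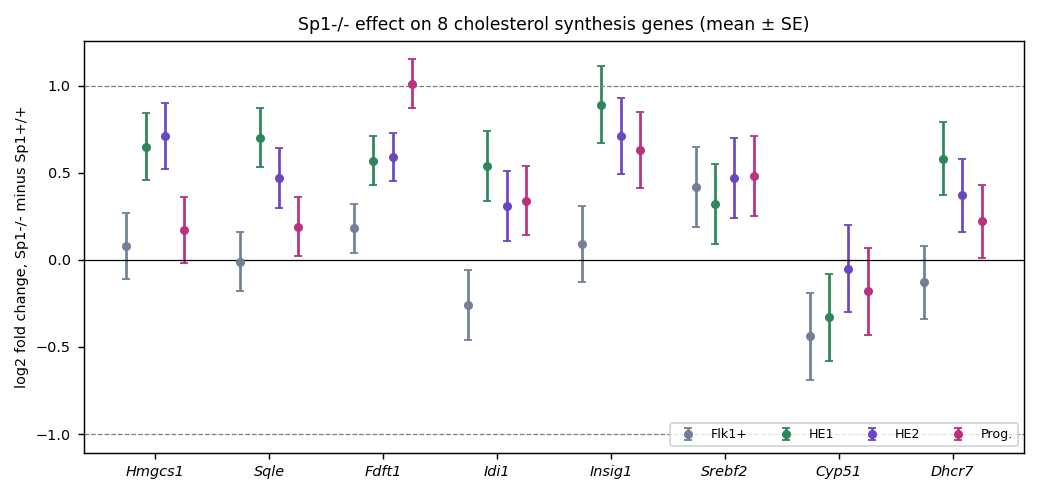
Log2 fold change of Sp1-/- over Sp1+/+ cells (vertical axis) for each of the 8 genes (horizontal axis) in 4 populations, with bars of ± 1 SE from the fit to 16 arrays and dashed lines at 2-fold. Fdft1 in progenitors, at 1.01, is the only point past 2-fold, and the 4 Cyp51 points are the only set below 0 throughout.

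The values in HE1 were sensitive to single arrays. With the adjusted p alone, 4 genes passed with all arrays, 1 (Dhcr7) without Sp1+/+ HE1 replicate 1, 0 without Sp1+/+ HE1 replicate 2 (limma, lowest adjusted p 0.141), 1 higher (Insig1) and 1 lower (Cyp51) without Sp1-/- HE1 replicate 1, and 1 (Idi1) without Sp1-/- HE1 replicate 2. Leaving out any one of the 4 HE2 arrays left 0 genes past the adjusted p in HE2 (limma, lowest adjusted p 0.0813), as did leaving out an array of Sp1+/+ Flk1+ cells, Sp1+/+ HE1 or Sp1-/- progenitors (0.0511 to 0.052), which enter that test only through the shared spread. Fitting only the arrays of each comparison left 0 genes past the adjusted p in HE1 and 0 in HE2 (limma, lowest adjusted p 0.164 and 0.0759). The fold changes kept their sign for 6 of these genes in HE1 and 7 in HE2, Srebf2 and Cyp51 in HE1 and Cyp51 in HE2 being the others. Other signals moved with genotype in the same samples. Summed intensity of 6 endothelial markers was 72300 to 76800 in Sp1+/+ HE1 and 54600 to 55100 in Sp1-/- HE1. By the adjusted p, 0 of these 6 passed, against 9.84% of all genes. The sum of 7 markers of dividing cells was 129000 to 140000 in Sp1+/+ HE1 against 89900 to 103000 in Sp1-/- HE1. Of these, 2 of 7 were lower by the adjusted p (Mki67 at -0.51 and Mcm5 at -0.79) against 5.48% of all genes. With the scanner's processed signal in place of the deposited values, the medians of the 8 genes were -0.24, 0.61, 0.41 and 0.40 from Flk1+ cells to progenitors, while the median of all genes in HE1 moved to 0.133, and 0 of the 8 passed the adjusted p in HE1 and HE2. Summed intensity of 7 erythroid markers was 4820 to 66600 in Sp1+/+ HE1, a wide spread between its 2 arrays, and 15400 to 17500 in Sp1-/- HE1. There 0 of 7 passed the adjusted p, against 9.84% of all genes. The erythroid sum was 53800 to 123000 in Sp1+/+ HE2 and 220000 to 225000 in Sp1-/- HE2. Hbb-bh1 was the brightest of the 7, with means of 16.03 and 17.44 in these groups. All 7 had a positive fold change in HE2, and 0 of 7 passed the adjusted p, against 5.68% of all genes. In progenitors, the sum of 6 mesenchymal and smooth muscle markers was 140000 to 194000 against 12700 to 13700, and the erythroid sum was 271000 to 594000 against 927000 to 929000. By the adjusted p, 5 of these 6 were lower, against 6.94% of all genes, and 3 of the 7 erythroid markers were higher, against 6.18%. Acta2 and Tagln were the brightest of the 6, with means of 16.53 and 15.80 in Sp1+/+ progenitors. The part of these marker differences in the results was not tested.

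The courses over the populations differed in shape between the genotypes by value, but tests of the difference mostly did not pass. From Flk1+ cells to HE1, every gene was lower in Sp1+/+ cells, with no overlap for 8 of 8 against 30% of all genes. By the adjusted p, 6 of 8 fell (Hmgcs1, Idi1, Sqle, Cyp51, Dhcr7 and Insig1), against 13.6% of all genes, with none called at 2-fold against 8.55%. The Sp1+/+ steps were -0.74 for Hmgcs1, -0.93 for Idi1, -0.52 for Sqle, -0.96 for Cyp51, -0.81 for Dhcr7 and -0.88 for Insig1. Without Sp1+/+ Flk1+ replicate 2 or without Sp1+/+ HE1 replicate 2, 1 gene (Idi1) passed. In Sp1-/- cells, 2 of 8 fell by the adjusted p (Cyp51 at -0.86 and Srebf2 at -0.68), against 16% of all genes, with none called against 9.49%, and the same step was -0.16 for Hmgcs1, -0.13 for Idi1, 0.18 for Sqle, -0.11 for Dhcr7 and -0.09 for Insig1. Neither of the 2 passed without Sp1-/- Flk1+ replicate 2 or without Sp1-/- HE1 replicate 2, and Cyp51 alone passed without Sp1-/- HE1 replicate 1. The Sp1-/- effect in HE1 exceeded that in Flk1+ cells by 0.80 ± 0.28 for Idi1, by 0.79 for Insig1 (95% interval 0.10 to 1.49) and by 0.71 for Sqle (0.18 to 1.24), and no gene passed the test of that difference (limma, lowest adjusted p 0.23, 4 genes at an unadjusted p of 0.05 or less). Against 1.6% of all genes called in it, 0 of 8 were called.

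From HE1 to HE2 few of the genes passed. Idi1 rose by 0.74 in Sp1+/+ cells (limma adjusted p = 0.0393), 1 of 8 against 5.67% of all genes, and none passed in Sp1-/- cells. Idi1 did not pass without Sp1+/+ HE1 replicate 2 (limma, lowest adjusted p of the 8 genes 0.211), without Sp1+/+ HE2 replicate 1 (0.205) or replicate 2 (0.1), or with only the arrays of the comparison (0.0659). Without Sp1+/+ HE1 replicate 1, Dhcr7 passed in its place. From HE2 to progenitors, Hmgcs1 was called lower in Sp1-/- cells at -1.24 (2.37-fold, limma adjusted p = 0.00115), 1 of 8 against 2.67% of all genes called lower, and Dhcr7 fell by 0.74 under the adjusted p (0.0384 by limma), which made 2 of 8 against 7.98%. Dhcr7 did not pass when any one of the 4 arrays of this step was left out, and Hmgcs1 passed each time. Sp1+/+ cells had no gene past either threshold in this step, with -0.71 for Hmgcs1 and a lowest limma adjusted p of 0.0752.

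From Flk1+ cells to progenitors, Sp1+/+ cells had 3 of 8 genes called lower, against 4.28% of all genes: Hmgcs1 at -1.47, Insig1 at -1.38 and Cyp51 at -1.19. Fdft1 at -0.59 and Dhcr7 at -0.88 also passed the adjusted p, giving 5 of 8 against 10.8%. Without Sp1+/+ progenitor replicate 2, 2 passed (Hmgcs1 and Insig1), and without Sp1+/+ Flk1+ replicate 2, 3 passed (Hmgcs1, Insig1 and Cyp51). In Sp1-/- cells Hmgcs1 alone was called, at -1.38, 1 of 8 against 6.59%, and with Insig1 at -0.84 and Cyp51 at -0.94 the adjusted p gave 3 of 8 against 17%. Without Sp1-/- Flk1+ replicate 2 or without Sp1-/- progenitor replicate 1, 1 passed (Hmgcs1). This comparison shares its Flk1+ arrays with the step to HE1. Fdft1 was 0.24 higher in Sp1-/- progenitors than in Sp1-/- Flk1+ cells (95% interval -0.08 to 0.55), so that its Sp1-/- effect was 0.83 larger in progenitors than in Flk1+ cells (95% interval 0.38 to 1.27, limma adjusted p = 0.0424, and 0.0526 with the replicate block). It was the only one of the 8 past the adjusted p in that test of the difference, against 5.11% of all genes, and none was called at 2-fold, against 3.82%.

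The other enzymes of sterol synthesis were split. Of 14 on the list, Flk1+ cells had 0 higher and 4 lower in Sp1-/- cells by the adjusted p: Hsd17b7, a sterol ketone reductase, at -1.1 (called), Mvd at -0.86 and Pmvk at -0.70, both of the mevalonate branch, and Ebp, a sterol isomerase, at -0.53. The median of the 14 was -0.21, and 3.63% of all genes were lower by the adjusted p. HE1 had 5 higher, against 4.35% of all genes, and 0 lower, with a median of 0.38: Tm7sf2, a sterol reductase, at 1.38 was called, and Lss, lanosterol synthase, at 0.96, Acat2 at 0.88, Nsdhl at 0.82 and Mvk at 0.65 passed the adjusted p. HE2 had 3 higher, against 2.34% of all genes, of which Lss at 1.20 and Tm7sf2 at 1.15 were called, and 2 lower, Pmvk at -0.48 and Ebp at -0.46, against 3.34% of all genes lower. The median was 0.21. Progenitors had 3 higher, against 6.18% of all genes, Tm7sf2 at 0.78, Nsdhl at 0.59 and Mvk at 0.45, and 1 lower, Ebp at -0.65, against 6.94% of all genes lower, and a median of 0.08. For 3 of the 14 the Sp1-/- effect in HE1 was called larger than that in Flk1+ cells, against 0.711% of all genes called in that direction: Tm7sf2 by 1.21, Mvd by 1.15 and Mvk by 1.05. By the adjusted p, 2 of the 14 passed (Mvk and Mvd), against 0.396% of all genes, and Tm7sf2 did not. The medians of the differences of effect between HE1 and Flk1+ cells were 0.81 for the list, 0.64 for the 8 genes and -0.01 over all genes.

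**Figure D3:**
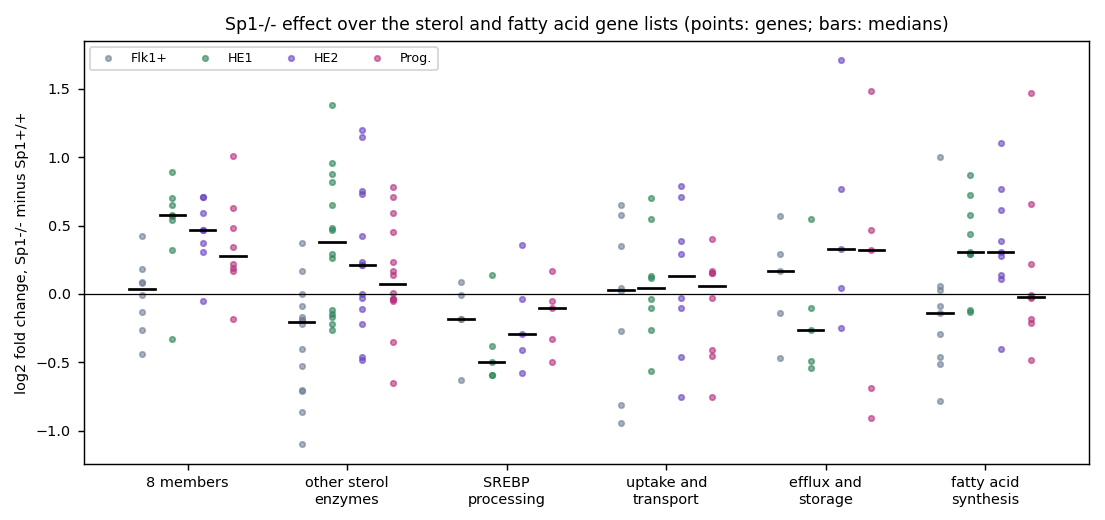
Log2 fold change of Sp1-/- over Sp1+/+ cells (vertical axis) for every gene on 6 lists (points, colored by population) with the median of each (black bars). The medians of the 8 genes and of the 14 other sterol enzymes are 0.58 and 0.38 in HE1 and 0.03 and -0.21 in Flk1+ cells.

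Of 5 genes that encode an SREBP (Srebf1) or act in SREBP processing, the medians were -0.18, -0.50, -0.29 and -0.10 from Flk1+ cells to progenitors. Srebf1, which encodes the SREBP form best known for fatty acid synthesis, was lower in Sp1-/- Flk1+ cells, HE1 and HE2, at -0.63, -0.59 and -0.58 (limma adjusted p = 0.01, 0.0126 and 0.0155), and differed by -0.05 in progenitors. Scap, the SREBP escort, was higher by 0.36 in HE2 (limma adjusted p = 0.0475) and did not pass elsewhere. Mbtps1, the first SREBP protease, passed in HE1 and progenitors, at -0.50 in each. Of 6 promoter partner factors, Sp4, a relative of Sp1, was called higher in all 4 populations, at 1.62, 1.36, 1.44 and 1.54. Creb1 was lower in HE1 by the adjusted p, with means of 9.20 in Sp1+/+ and 8.70 in Sp1-/- cells. Sp3 and the NF-Y subunits Nfya, Nfyb and Nfyc passed in none, with Sp3 between -0.31 and -0.02 and an SE of 0.40. Over all genes, 6.98%, 9.84%, 5.68% and 13.1% passed the adjusted p in either direction from Flk1+ cells to progenitors.

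Uptake and transport genes passed in both directions. Of 8, the adjusted p gave 1 higher and 2 lower in Flk1+ cells, 2 higher in HE1, 1 higher and 1 lower in HE2, and 1 higher and 2 lower in progenitors, with medians of 0.03, 0.04, 0.13 and 0.06. Over all genes, the shares higher were 3.34%, 4.35%, 2.34% and 6.18% from Flk1+ cells to progenitors, and the shares lower were 3.63%, 5.48%, 3.34% and 6.94%. Lrp1, a lipoprotein receptor, was higher in HE1, HE2 and progenitors at 0.70, 0.71 and 0.40, whereas Lrp8, another receptor of the family, was lower in Flk1+ cells, HE2 and progenitors at -0.94, -0.75 and -0.75. Of 5 efflux and storage genes, with medians of 0.17, -0.26, 0.33 and 0.32, Abcg1, a sterol exporter, was called higher in HE2 at 1.71 and in progenitors at 1.48. Nr1h3, a sterol-sensing nuclear receptor, was lower by the adjusted p at the Flk1+ stage, in HE1 and in progenitors (-0.47, -0.54 and -0.69), Soat1, which esterifies cholesterol, was lower in progenitors at -0.91, and Nr1h2, a relative of Nr1h3, was higher in HE1 at 0.55. Of 9 fatty acid synthesis genes, with medians of -0.14, 0.31, 0.31 and -0.02, Acss2, which makes acetyl-CoA from acetate, was called higher in Flk1+ cells at 1.00, in HE2 at 1.1 and in progenitors at 1.47, and Fasn, fatty acid synthase, was lower in Flk1+ cells at -0.78. By the adjusted p, HE1 had 3 higher (Acss2, Acaca and Elovl6), and HE2 and progenitors had 2 each (Acss2 and Fads2). The lists do not hold every gene of these pathways.

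Across the 16 arrays, the course of each gene was compared with the mean of the 8, each centred on its own mean. Among 20094 genes with a name and no place among the 8, Lss was the most alike (Pearson r = 0.912), followed, among those reported, by St13 (0.889), Scd2 (0.866) and Scx (0.859). These are descriptions over arrays that share genotype, slide and population. Lss, the enzyme just after Sqle, was 11.91 in Flk1+ cells of both genotypes, 10.44 and 11.39 in Sp1+/+ and Sp1-/- HE1, and 10.76 and 11.96 in HE2. Within the 8 genes, Hmgcs1 and Insig1 had r = 0.87, and Idi1 and Insig1 had r = 0.33.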

How the data were processed

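RNA of 16 samples was hybridised to Agilent one-color mouse arrays. The scanner files deposited by the authors hold intensity values per spot from Feature Extraction (version 10.7.1.1 in the submitters' processing notes and 10.7.3.1 per the file headers). The authors' deposited table holds log2 values after normexp background correction and quantile normalization in limma. The supplementary methods give an offset of 16, but recomputation with an offset of 50 matched the table within 0.005, against up to 1.63 with 16. These log2 values were used as deposited, intensities serving only for flags and alternatives.

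Control spots were dropped, outlier-flagged spots set to missing, spots of a probe averaged, and probes kept with log2 of at least 6 on 1 array or more. The brightest probe stood for a gene. Of 37932 target names, 20869 were matched by accession and 11 by symbol to RefSeq (GRCm38.p6), and unmatched names stayed in the test. On all 16 arrays 67% to 77.1% of spots were well above background and 0 were saturated. All 8 genes were well above background on every array with 0 outlier flags. The number of arrays limits the precision.

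A model with 8 group means was fitted with limma 3.58.1 in R 4.3.3 and tested on simulated data. Adjusted p-values cover 37149 genes. Genes named are the 8, Sp1, listed genes called in any genotype comparison, Srebf1, Scap and 4 genes most alike in course, some items being not reported here; others were named after their values were seen. The 8 genes and the lists were chosen with earlier results of these data known. Alternatives were background correction, the scanner's processed signal scaled to its 75th percentile, filters, probe rule, arrays fitted, the replicate block, Student's t-test, and leaving out each array. The lists of markers were used as sums of linear intensity. Sums of the 4 Flk1+ mesoderm markers were 46400 to 71100 in Flk1+ cells and 13700 to 44600 in the other populations. Those of 7 hematopoietic markers were 26800 to 46100 in HE2 and progenitors and 4030 to 11400 in Flk1+ cells and HE1. The 5 pluripotency markers summed to 17700 to 20800 in Sp1+/+ and 7130 to 10300 in Sp1-/- Flk1+ cells, and to at most 1830 elsewhere. Dppa5a was the brightest of these in Flk1+ cells, with means of 14.09 in Sp1+/+ and 12.59 in Sp1-/- cells. The other 4 had positive fold changes of Sp1-/- over Sp1+/+ there.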

Additional observations from a re-analysis of the deposited data

Results flagged for a closer look

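The Sp1-/- effect on Fdft1 differed between populations by the test of the difference itself. It was 0.83 (log2, 95% interval 0.38 to 1.27) larger in progenitors than in Flk1+ cells, with a limma adjusted p of 0.0424, under 2-fold. Both Sp1-/- progenitor arrays were above both Sp1+/+ arrays, and the Flk1+ arrays overlapped. With 1 array left out at a time the limma adjusted p ranged from 0.0345 to 0.153, the highest without Sp1-/- Flk1+ replicate 1, and it was 0.0535 with a normexp offset of 16, 0.051 with no background correction, 0.0526 with the replicate block and 0.0634 with only the arrays of the comparison.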

How the results depend on the processing

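Changes of 2-fold at p 0.01 by limma were few, so counts moved by small steps. Under the adjusted p of 0.05 with no fold threshold, chosen after seeing the data, the counts were 4 in HE1, 2 in HE2, 6 and 2 from Flk1+ cells to HE1 (Sp1+/+ and Sp1-/-), 1 from HE1 to HE2 in Sp1+/+ cells, 2 from HE2 to progenitors in Sp1-/- cells, 5 and 3 from Flk1+ cells to progenitors, and 1 for the difference of effects between progenitors and Flk1+ cells. With the processed signal, the step from Flk1+ cells to HE1 in Sp1+/+ cells had 1 call, the difference of effects between progenitors and Flk1+ cells had 1, and Hmgcs1 in Flk1+ cells reversed to -0.16. That scaling moved the median of all genes in HE1 to 0.133, the medians of the 8 genes were then -0.24, 0.61, 0.41 and 0.40, and 0 genes passed the adjusted p in HE1 and HE2. Averaging probes, the genotype count in progenitors was 0. The study's methods used limma for the arrays and name Student's t-test only in a general statement on comparing samples. Such a t-test of 2 against 2 arrays was run with and without Benjamini-Hochberg adjustment. It gave 0 for genotype in progenitors, 0 from HE2 to progenitors in Sp1-/- cells and 0 from Flk1+ cells to progenitors in either genotype. It was not run for differences of effects. The cause was not tested for any of these.

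Leaving out 1 array at a time, counts ranged from 0 to 1 for genotype in HE1, 0 to 1 in progenitors, 0 to 4 from Flk1+ cells to HE1 in Sp1+/+ cells and 0 to 1 in Sp1-/- cells, 1 to 2 from Flk1+ cells to progenitors in Sp1-/- cells, and 0 to 1 for the difference of effects between HE1 and Flk1+ cells. Fold changes that reversed ranged in Flk1+ cells from -0.16 to 0.33 (Hmgcs1), -0.22 to 0.20 (Sqle), -0.03 to 0.22 (Insig1) and -0.31 to 0.05 (Dhcr7), in HE1 from -0.08 to 0.72 (Srebf2) and -0.81 to 0.15 (Cyp51), in HE2 from -0.17 to 0.09 (Cyp51), and in progenitors from -0.07 to 0.41 (Hmgcs1) and -0.37 to 0.00 (Cyp51). Whether the replicate numbers pair the samples was not settled. Of 28 pairs of groups, 10 had a correlation of deviations over 0.1 (range -0.17 to 0.50), the highest between Sp1+/+ HE1 and Sp1+/+ HE2. With the replicate block, 0 genes were called for genotype in Flk1+ cells, HE1 and HE2 and 1 in progenitors, as without it, and by the adjusted p 3 passed in HE1, 1 in HE2 (Hmgcs1 being lost in both) and 1 in progenitors, and 0 for the difference of effects between progenitors and Flk1+ cells, where Fdft1 was lost.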

Other observations

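A sterol exporter, an acetate-activating enzyme and the SREBP escort were higher in progenitors than in Flk1+ cells in both genotypes. By the adjusted p, 10.4% of all genes were higher over this step in Sp1+/+ cells and 16.8% in Sp1-/- cells. Other listed genes also passed in both genotypes, some higher (such as Abca1 and Lipa) and some lower (such as Vldlr and Lrp1). Abcg1 was 7.38 in Sp1+/+ Flk1+ cells and 10.33 in Sp1+/+ progenitors, a rise of 2.94 on the log2 scale (limma adjusted p = 4.19e-05), and the same step in Sp1-/- cells was 3.86 (limma adjusted p = 3.08e-06). Acss2 rose by 1.17 and 1.64 over that step, after a fall by 1.23 and 1.36 from Flk1+ cells to HE1. Scap rose by 0.49 in Sp1+/+ and 0.84 in Sp1-/- cells from Flk1+ cells to progenitors, under 2-fold, with limma adjusted p of 0.00264 and 3.52e-05. The tests of the difference between genotypes for Abcg1 and Acss2 gave limma adjusted p of 0.327 and 0.54. Scap did not pass the same test by the adjusted p.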
